A study of Mus musculus with 3 samples.

Results

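Matrix metalloproteases (Mmp), the secreted proteases of the Adamts family, the related Adamtsl proteins and the tissue inhibitors of metalloproteases (Timp) were followed in single cells of 3 mouse melanomas. The members were chosen by name: every feature of the count tables whose mouse symbol was Mmp, Adamts, Adamtsl or Timp followed by a number, with at least 20 unique molecular identifiers (UMIs, 1 per captured transcript) over all cells. This gave 43 genes of 36530 features, namely 17 Mmp, 18 Adamts, 4 Adamtsl and 4 Timp genes. Another 8 named features did not reach 20 UMIs: Mmp24 held 19, Adamtsl2 held 12, Mmp1b held 5, Mmp20 and Mmp21 held 1 each, and Mmp7, Mmp1a and Adamts13 held 0.

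The tumors arose in an autochthonous mouse model on a C57BL/6 background with engineered alleles that include Tyr.CreER (a tamoxifen-inducible Cre driven by the tyrosinase promoter, active in melanocytes) and Braf LSL.V600E, which Cre turns on. Tumors were started with 4-OH tamoxifen on the skin, and some animals of the line also carry Rosa26 LSL.tdTomato, a red reporter of recombined cells. All 3 tumors share these alleles, so none of the groups is a tumor-free or Braf wild-type control. One tumor was untreated, one had regressed on vemurafenib, an inhibitor of mutant BRAF kinase, and one had progressed on vemurafenib; the labels give neither ages nor treatment times. Each group is a single tumor, so no test between groups was possible, treatment cannot be told apart from the animal, and every interval given here is a 95% interval for counting error only.

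Matrix metalloproteases are zinc proteases that cut collagens, proteoglycans and other proteins of the extracellular matrix, and most are secreted as inactive proforms. Adamts proteases carry thrombospondin repeats and act mainly on proteoglycans and on the ends of procollagens, whereas Adamtsl proteins share their architecture but lack the protease domain. Timp proteins bind the active site of these enzymes and block it. In skin and in solid tumors, fibroblasts make most of the enzymes and inhibitors, and neutrophils and macrophages bring enzymes of their own.

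Of the members, 6 (Mmp13, Mmp12, Mmp3, Mmp10, Mmp8 and Mmp27) lie in a row of 10 Mmp genes that spans 427 kb of chromosome 9 (7272514 to 7699585, GRCm38) with 0 other protein-coding genes between them. Promoter windows of 300 bases, from 250 bases before to 50 after the annotated start, were matched in RefSeq (GRCm38.p6) for 28 of the 43 members. The AP-1 word TGAGTCA, read on either strand, was present in at least 1 window of 4 of the 28. Over all genes with a window it was present in 5.95% of 27025 genes, or 5.20% of 32851 promoter windows. All 4 were Mmp genes of this row: Mmp3, Mmp10, Mmp12 and Mmp13. AP-1 is the Fos and Jun transcription factor that acts downstream of MAPK signaling. The 150 bases before the start of 5 of these genes are shown because their transcripts lay in different cells, as described further on; the AP-1 word (TGAGTCA, or TGACTCA where it lies on the other strand) and the TATA word TATAAA are in capitals.
Mmp3, stromelysin-1, chr9:7445672-7445821, plus strand: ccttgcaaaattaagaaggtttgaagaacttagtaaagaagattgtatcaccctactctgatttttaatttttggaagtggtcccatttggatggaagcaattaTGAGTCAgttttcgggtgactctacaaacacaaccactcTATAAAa
Mmp10, stromelysin-2, chr9:7502192-7502341, plus strand: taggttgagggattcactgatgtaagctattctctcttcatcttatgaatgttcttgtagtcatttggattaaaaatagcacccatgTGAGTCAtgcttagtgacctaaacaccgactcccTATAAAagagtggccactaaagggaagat
Mmp13, collagenase-3, chr9:7272364-7272513, plus strand: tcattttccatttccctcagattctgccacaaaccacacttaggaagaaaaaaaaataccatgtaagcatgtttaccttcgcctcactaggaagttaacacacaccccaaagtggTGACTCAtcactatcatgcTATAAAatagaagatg
Mmp12, macrophage elastase, chr9:7347224-7347373, plus strand: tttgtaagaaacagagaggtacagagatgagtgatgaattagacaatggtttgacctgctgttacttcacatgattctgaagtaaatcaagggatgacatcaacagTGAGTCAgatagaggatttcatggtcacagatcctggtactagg
Mmp8, neutrophil collagenase, chr9:7558279-7558428, plus strand: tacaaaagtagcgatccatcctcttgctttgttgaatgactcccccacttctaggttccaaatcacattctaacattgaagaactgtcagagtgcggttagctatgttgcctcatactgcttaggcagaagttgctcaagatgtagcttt

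Counted from the annotated start, the first base of the AP-1 word lay at -35 in Mmp13, -44 in Mmp12, -46 in Mmp3 and -63 in Mmp10. The Mmp12 window precedes an alternative start inside the gene, and the window before its other start (chr9:7344247-7344396) did not hold the word. The TATA word was present in either orientation in 15.7% of all genes with a window (13.6% of all promoter windows) and in 6 of the 28 members. These were Adamts1, Mmp3, Mmp8, Mmp10, Mmp12 and Mmp13, and the word could lie up to 50 bases past the start. Both the AP-1 and the TATA word also occur before Mmp1a, Mmp1b and Mmp7 of the same row, which were under 20 UMIs here. A match only says that these letters are in the window, and binding at these sites was not measured.

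The untreated library held 4095 cells with 22202192 UMIs, the regressed library 3726 cells with 12413268 and the progressed library 4849 cells with 26948940, and median UMIs per cell were 4496, 2658 and 4566. The regressed library stood apart: haemoglobin features made 3.96% of its UMIs against 0.272% and 0.00848%, and Xist, expressed from the inactive X chromosome, was at 0.403 CPM (counts per 1000000, here the UMIs of a gene per 1000000 UMIs of the same cells) against 1494 and 1735. The haemoglobin features Hbb-bs and Hbb-b1 each held 186457 UMIs in all, and Hbb-bt and Hbb-b2 each 63847. These identical totals entered the percentages under both names, so the percentages overstate the share of haemoglobin transcripts. The deposited clusters were grouped as stroma (Stroma1 to Stroma10), immune cells (7 clusters), tumor cells (Tumor1 and Tumor2) and the other clusters. The fibroblast list (7 of 7 genes detected) summed to 46611, 40122 and 46982 CPM in the stroma of the untreated, regressed and progressed tumors. The melanoma list summed to 3842, 3530.2 and 5252 in tumor cells against at most 89.97 in stroma, although in Tumor1 the pigment genes Tyrp1 and Mlana were at 0 in the untreated and regressed tumors and Mlana also in the progressed tumor, and tdTomato was at 0 in regressed Tumor1. The stromal cells of the tumors lay in different clusters. Of 1918 regressed stroma cells, 1537 were in Stroma10 and 310 in Stroma9, clusters that held 4 and 0 untreated and 7 and 1 progressed cells. Stroma1 (472 untreated, 1 regressed and 0 progressed cells) and Stroma2 (1144, 1 and 26) were almost wholly untreated, and Stroma6 (83, 13 and 1255) and Stroma7 (18, 6 and 444) mostly progressed.

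The 43 members together held 222134 UMIs, which was 0.340% of all UMIs of the untreated, 0.360% of the regressed and 0.379% of the progressed library. Timp3, Mmp2 and Timp2 made up 51.7% of these UMIs and the first 10 members 86.1%. Stroma held 86.6% of all member UMIs, and 34 of the 43 members had over 50% of their UMIs there, 11 of them over 90%. The 5 members found mainly in immune cells were Mmp8 (95.7%), Mmp9 (84.7%), Mmp25 (73.4%), Mmp12 (62.8%) and Mmp13 (55.9%). Mmp17 was the only member with most of its UMIs in tumor cells (61.3%), and Mmp15, Timp4 and Adamts20 were spread over several compartments. Where a cluster is named as the highest for a gene, groups with fewer than 10 UMIs of that gene are left out unless their value is given.

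**Figure D1:**
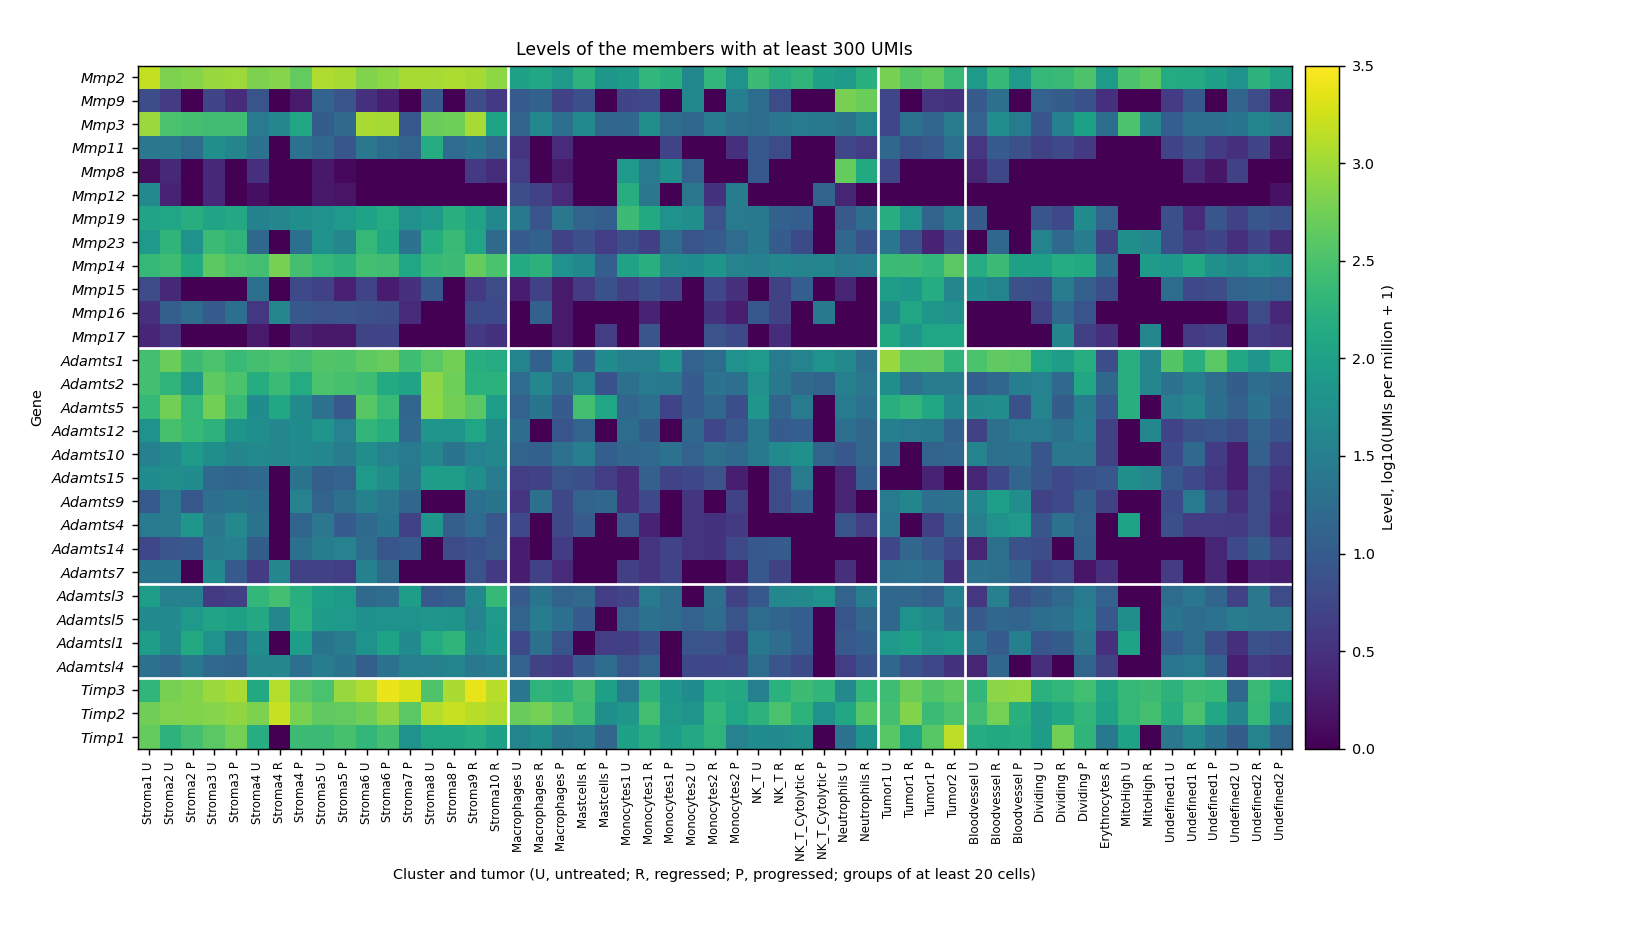
Level of the 29 members with at least 300 UMIs (rows, grouped by family) in every cluster and tumor with at least 20 cells (columns; U untreated, R regressed, P progressed; white lines separate compartments), as log10 of CPM (UMIs of a gene per 1000000) plus 1. Mmp2 and Timp2 are high across all stroma columns, while Timp3 runs there from 133 (untreated Stroma4) to 2511 CPM (progressed Stroma6). Mmp8 and Mmp9 stand out in neutrophils, and Mmp17 in tumor cells.

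Gelatinase A (Mmp2), which cuts denatured collagen and basement membrane collagen, was high in every stroma cluster. Over all stroma cells its level was 899 CPM in untreated, 864 in regressed and 862 in progressed cells, and the log2 ratios of -0.058 (regressed to untreated), -0.0019 (progressed to regressed) and -0.059 (progressed to untreated) were all far below 2-fold. Across the 17 combinations of stroma cluster and tumor with at least 20 cells it ran from 454 (Stroma4, progressed) to 1489 (Stroma1, untreated), with Stroma5 near the top in both the untreated (1205) and the progressed tumor (1093). Mmp2 thus varied more between stroma clusters than between the summed stroma of the tumors. A Mmp2 UMI was found in 82.9%, 75.5% and 85.4% of stroma cells, and after thinning each cell to 1000 UMIs in 47.7%, 52.9% and 50.8%. NK_T cells, taken here as a reference outside the stroma, carried a Mmp2 UMI in 20% (untreated) and 32.2% (regressed) of cells. Of the 30 untreated NK_T UMIs, 25 were in 1 of the 25 cells. Whether these cells make Mmp2 was not tested, so a UMI by itself was not taken to mark a cell that makes it.

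Stromelysin-1 (Mmp3), a broad protease that also activates other Mmp proforms, differed strongly between stroma clusters. Its stroma level was 387 CPM in untreated, 327 in regressed and 395 in progressed cells, and none of the 3 comparisons reached 2-fold. Behind these similar sums, Stroma6 held 1141 CPM in the untreated and 1079 in the progressed tumor, Stroma9 held 1101 in the regressed and Stroma1 931 in the untreated tumor. Low levels were found in Stroma10 (106, regressed), Stroma4 (27.2 untreated, 113 progressed), Stroma5 (9.86 untreated, 15.2 progressed) and Stroma7 (8.24, progressed). Each tumor therefore had stroma with high and stroma with low Mmp3, in different clusters. In Stroma4, the ratio of progressed to untreated was 2.06 (1.69 to 2.44) on the log2 scale, whereas in Stroma6 it was -0.081 (-0.21 to 0.049). The untreated Stroma6 level rested on few cells, since 1 of its 83 cells held 217 of the 541 Mmp3 UMIs and 5 cells held 70.1%, against 7.91% in the 5 highest progressed Stroma6 cells. The Mmp3 high clusters were not alike cell by cell: a UMI was found in 63.9% of progressed Stroma6 and 64.8% of regressed Stroma9 cells but in 33.1% of untreated Stroma1 cells, where the 48 highest of 472 cells held 88.0% of the Mmp3 UMIs and 1 cell held 219. In progressed Stroma6, the 126 highest of 1255 cells held 58.7%.

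The membrane-type protease Mmp14, which activates the Mmp2 proform at the cell surface, was spread over most stroma clusters at 254 CPM in untreated, 357 in regressed and 228 in progressed cells. Apart from 606 in 20 regressed Stroma4 cells, which rests on 15 UMIs, its highest stroma levels were 474 in regressed Stroma9 and 409 in untreated Stroma3, its lowest 118 in progressed Stroma7. The ratio of regressed to untreated was 0.49 (0.42 to 0.57) and that of progressed to regressed -0.65 (-0.72 to -0.57), neither reaching 2-fold. Mmp14 was also present in tumor cells (239, 366 and 207) and in untreated, regressed and progressed macrophages (136, 178 and 57.7).

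Of the lower stroma Mmp genes, Mmp19, a secreted protease, was at 92.5, 55.3 and 94.8 CPM in untreated, regressed and progressed stroma, and Mmp23, a transmembrane protease with a short cysteine-rich tail, at 125, 43.0 and 66.1. Mmp23 was low in Stroma4 (13.6 untreated, 18.3 progressed), Stroma7 (20.9) and Stroma10 (15.4) and highest in untreated Stroma3 (241). Mmp11, stromelysin-3, known as a gene of tumor fibroblasts, was at 24.6, 15.6 and 14.6 over all stroma, with its highest level in untreated Stroma8 (148, 23 cells) and 15.8 in progressed Stroma8.

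The proteoglycan-cutting Adamts genes had distinct places in the stroma. Adamts1 was at 395, 149 and 362 CPM in untreated, regressed and progressed stroma, with Stroma10 (143) and Stroma9 (159.9) of the regressed tumor as the lowest stroma groups. Its highest level in any group was in Tumor1 of the untreated tumor (897), and it was present in Bloodvessel cells (326, 443 and 401) and in Undefined1 (369.6, 155 and 406), a cluster with keratinocyte genes. Adamts5, an aggrecan- and versican-cutting protease, was at 339, 166 and 101 over all stroma. Its levels split the clusters: untreated Stroma8 (813), Stroma3 (576) and Stroma2 (561) were high, while Stroma5 (19.0 untreated, 8.49 progressed) and progressed Stroma7 (13.2) were low. Within clusters shared by the untreated and progressed tumors, the interval of the log2 ratio lay below 0 in 5 of 6 stroma clusters, for example -1.36 (-1.66 to -1.06) in Stroma3 and -0.77 (-0.997 to -0.54) in Stroma6. Adamts15 was highest in Stroma8 (90.3 untreated and 89.4 progressed), and Adamts4 and Adamts9 were highest in Bloodvessel cells, at 32.1, 60.6 and 76.4 for Adamts4 and 42.4, 93.3 and 50.9 for Adamts9. These Bloodvessel values rest on 74, 48 and 28 cells, with 20 UMIs behind the highest Adamts9 and 12 behind the highest Adamts4 value. In the untreated tumor, higher Adamts4 levels stood on fewer UMIs, at 107 in MitoHigh (2 UMIs) and 65.7 in Stroma8 (8 UMIs).

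Adamts2, Adamts3 and Adamts14 remove the amino-terminal propeptide of procollagens, a step before collagen fibrils form. Adamts2 had the most UMIs of these, at 231, 182 and 198 CPM in untreated, regressed and progressed stroma, without a 2-fold difference between any of the tumors. It peaked in Stroma8 (779.7 untreated, 526 progressed) and Stroma3 (427 and 323). Adamts14 was highest in progressed Stroma5 (34.9) and Stroma3 (32.6), and Adamts3 stayed at or below 2.89 in groups with at least 10 of its UMIs. Adamts7 and Adamts12, which cut cartilage oligomeric matrix protein, had their highest levels in untreated Stroma3 (47.4) and untreated Stroma2 (302). Adamts10, a protease of fibrillin microfibrils, was even over the stroma, at 43.4, 39.4 and 34.7. Its highest single values, 74.3 in progressed Stroma2 and 56.5 in regressed NK_T_Cytolytic cells, rest on 9 and 11 UMIs.

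The Adamtsl genes, whose protein products bind fibrillin microfibrils without cutting, were set apart from each other by cluster. Apart from 283 in 20 regressed Stroma4 cells, which rests on 7 UMIs, Adamtsl3 was highest in regressed Stroma10 (223), untreated Stroma4 (207) and progressed Stroma4 (158) and nearly missing from Stroma3 (2.96 untreated and 3.63 progressed), where Mmp23 and Adamts5 were high. Adamtsl5 and Adamtsl4 also peaked in Stroma4, Adamtsl5 at 169 in the progressed and Adamtsl4 at 40.8 in the untreated tumor. Adamtsl1 was highest in Stroma8 (139.5 untreated and 195 progressed) and was also found in tumor cells, at 77.1, 92.7 and 61.6 in Tumor1.

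Of the inhibitors, Timp3, which binds to the matrix and blocks Adam and Adamts proteases as well as Mmp enzymes, was higher in both treated tumors in nearly all clusters. Its stroma level was 442 CPM in untreated, 1536 in regressed and 1442 in progressed cells. The ratio of regressed to untreated was 1.80 (1.75 to 1.84) on the log2 scale, or 3.47-fold, and that of progressed to untreated 1.71 (1.67 to 1.75), or 3.26-fold, while progressed and regressed stroma differed by -0.090 (-0.12 to -0.057). Within Stroma6 the level was 1224 in the untreated and 2511 in the progressed tumor. In Stroma4 the values were 133 and 402, and in Stroma5 307 and 923. Over all clusters with at least 20 cells in both tumors, the interval of the log2 ratio of progressed to untreated lay above 0 in 13 of 14 clusters, 9 of them past 2-fold, and that of regressed to untreated in 10 of 11, 9 past 2-fold. The stroma cluster where it did not was Stroma2, at 608 and 694. Stroma clusters made up 6 of the 14 and 1 of the 11. The clusters in which a higher level was counted included NK_T cells, which are not known to make Timp3. In the pooled NK_T and NK_T_Cytolytic cells (40, 238 and 41 cells) it was at 25.1, 191 and 118 CPM, which follows the order of the stroma levels, and the part of such free RNA in the other non-stromal clusters was not tested.

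Timp2, which blocks Mmp enzymes and also links Mmp14 to the Mmp2 proform, was highest in the regressed tumor. It stood at 619 CPM in untreated, 1219 in regressed and 633 in progressed cells over all stroma, a ratio of regressed to untreated of 0.98 (0.93 to 1.02) or 1.97-fold, just short of the 2-fold line, and of progressed to untreated of 0.031 (-0.010 to 0.071). In the clusters of any kind shared by both tumors, the interval of the log2 ratio of regressed to untreated lay above 0 in 10 of 11 clusters and that of progressed to regressed below 0 in 10 of 11. Only 1 of the 11 in each comparison was a stroma cluster (Stroma4, with 20 regressed cells). The part of free stroma RNA in the other clusters was not tested. Macrophages also carried Timp2 well above the level in NK_T cells, at 479, 586 and 420.4 against 151, 277 and 56.1 in pooled NK_T and NK_T_Cytolytic cells.

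Timp1, an inducible inhibitor of many secreted Mmp enzymes, had the opposite order in stroma, at 250.1 CPM in untreated, 111 in regressed and 269 in progressed cells. Apart from 20 regressed Stroma4 cells with 0 UMIs, it was lowest in progressed Stroma7 (61.5) and regressed Stroma10 (100.1) and highest in Stroma3 (404 untreated, 595 progressed) and untreated Stroma1 (463). In progressed Stroma3, 1 of 88 cells held 79 of the 328 Timp1 UMIs and 5 cells held 57.6%. The highest Timp1 level of all was in tumor cells: regressed Tumor2, a cluster of 349 shallow cells with a median of 768 UMIs, held 1402 (1294 to 1517). Tumor1 held 389.8, 113 and 385. In untreated Tumor1, 5 of 44 cells held 69.8% of the 86 Timp1 UMIs. In progressed Tumor1, 5 of 156 cells held 53.6% of 319, and regressed Tumor1 had only 17 UMIs. Timp4 was rare, with 88 UMIs in all, of which 10 cells held 48.9%. Its highest level was in regressed Bloodvessel cells (18 UMIs, 83.9 CPM, 49.8 to 133), against 0 in Bloodvessel cells of the untreated and progressed tumors. Regressed Undefined1 cells held 16 UMIs (25.8 CPM) and untreated Tumor1 cells 9 (40.8 CPM). All stroma held 11, 6 and 4 UMIs in the untreated, regressed and progressed tumors.

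**Figure D2:**
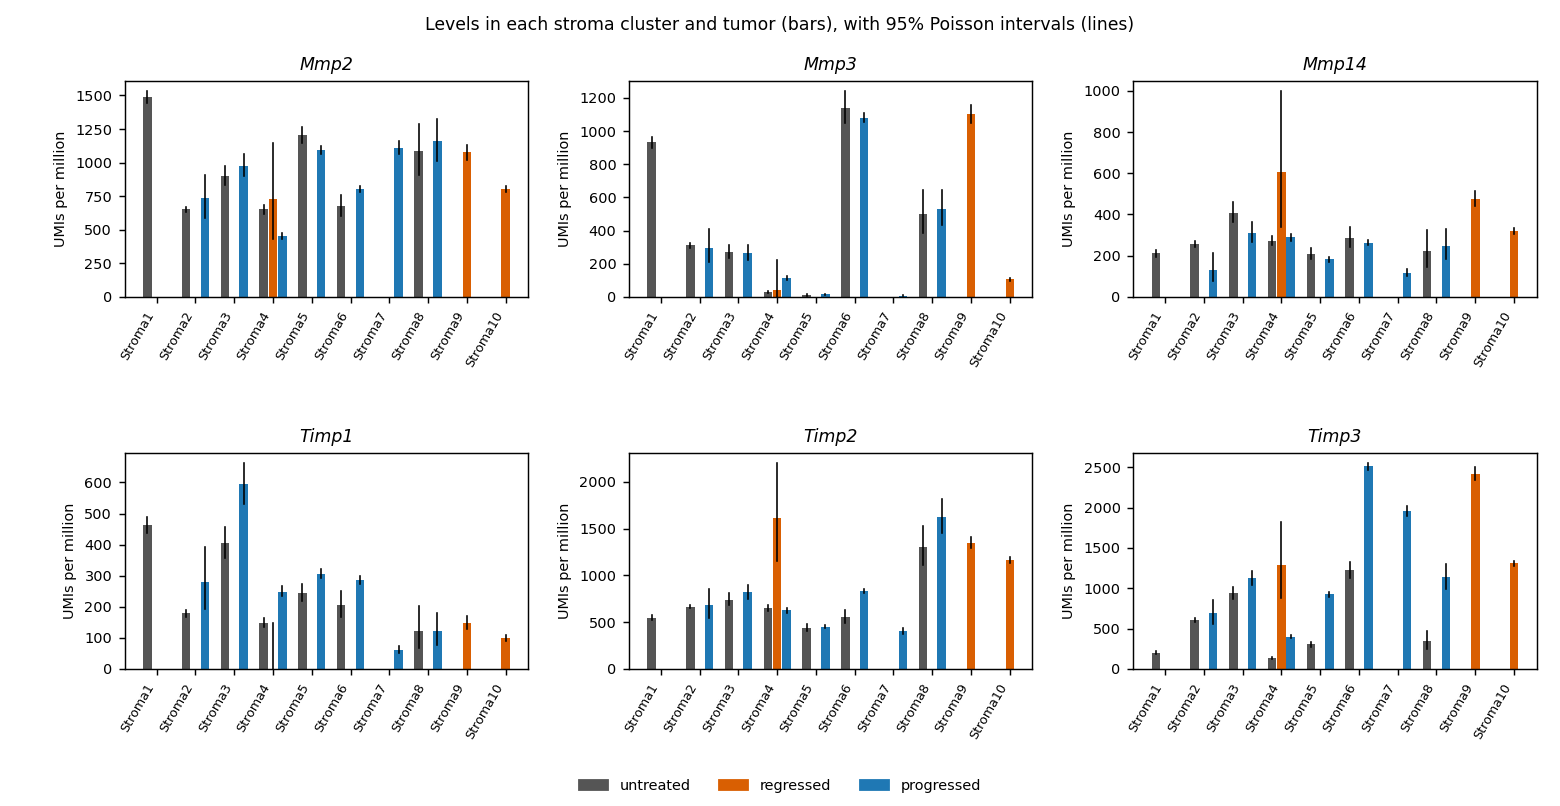
Level of Mmp2, Mmp3, Mmp14, Timp1, Timp2 and Timp3 in CPM in each stroma cluster with at least 20 cells of a tumor; bars are coloured by tumor and lines are 95% Poisson intervals for counting error. Mmp3 runs from 8.24 to 1141, whereas Mmp2 stays between 454 and 1489.

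Summed over the families, the Timp sum was higher and the Adamts sum lower in the stroma of the treated tumors, with little difference in the Mmp sum. The 4 Timp genes summed to 1313, 2867 and 2345 CPM in untreated, regressed and progressed stroma, with log2 ratios of 1.13 (1.10 to 1.16) for regressed and 0.84 (0.81 to 0.86) for progressed to untreated. The Adamts sums were 1312, 682 and 883, with ratios of -0.94 (-0.99 to -0.90) and -0.57 (-0.60 to -0.54). The Mmp sums were 1819, 1689.9 and 1678, with ratios of -0.11 (-0.14 to -0.074) and -0.12 (-0.14 to -0.092). TMM scaling, which centres the libraries on genes of middling ratio, moves every stroma log2 ratio by -0.25 (regressed to untreated), 0.31 (progressed to regressed) and 0.060 (progressed to untreated). It turned none of these family directions against the untreated tumor. The Timp and Mmp ratios of progressed to regressed, -0.29 and -0.010, were smaller in size than the shift of 0.31. The sums were not recomputed without Stroma10. A family sum is led by its most counted genes. In all 3 tumors these were Timp3 and Timp2 for the inhibitors. Between untreated and progressed stroma, Timp3 rose from 442 to 1442, while Timp2 (619 and 633) and Timp1 (250.1 and 269) were nearly level. Timp1 was lower in regressed stroma, at 111. For the Mmp sum they were Mmp2 and Mmp3, with Mmp14 in place of Mmp3 in the regressed tumor. For the Adamts sum they were Adamts1 and Adamts5 in untreated, Adamts2 and Adamts5 in regressed and Adamts1 and Adamts2 in progressed stroma.

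The first comparison asked which members differed between the stroma of the regressed and the untreated tumor. A member was called where the levels differed at least 2-fold and the interval of the log2 ratio left out 0, among genes with at least 20 UMIs in both tumors together. The inhibitor Timp3 was higher in regressed stroma, while many proteases and Timp1 were lower. Of 39 members compared, 4 were higher and 14 lower in regressed stroma, beside 13.2% of all 14791 compared features called higher and 6.38% called lower. In the parentheses that follow, a log2 ratio stands before the bounds of its interval. The median log2 ratio was -0.34 over the members and 0.14 over all features. Higher were Mmp28 (2.30, 1.27 to 3.42), Mmp27 (2.02, 0.99 to 3.11), Timp3 and Adamtsl3 (1.16, 1.04 to 1.28). The first 2 of these are rare, with 12 and 27 stroma UMIs for Mmp28, epilysin, and 13 and 24 for Mmp27 in the untreated and regressed tumors. The lower members included 6 Adamts genes that act on proteoglycans, cartilage oligomeric matrix protein or procollagen: Adamts1 (-1.41, -1.51 to -1.31), Adamts4 (-1.44, -1.85 to -1.04), Adamts5 (-1.03, -1.13 to -0.93), Adamts7 (-2.17, -2.82 to -1.59), Adamts12 (-1.49, -1.65 to -1.33) and Adamts3 (-1.33, -2.87 to -0.055). Adamts16 (-2.87, -5.20 to -1.23) and Adamts18 (-1.66, -2.62 to -0.81) were lower too, and Adamts19, at 29 UMIs in untreated and 0 in regressed stroma, was at least 4.41-fold lower when the 0 is set to a floor of 3 UMIs. Among Mmp genes, Mmp23 (-1.54, -1.73 to -1.36), Mmp13 (-3.26, -8.63 to -0.62), Mmp10 (-4.54, -9.87 to -1.998) and Mmp12 were lower, and among the inhibitors Timp1 (-1.17, -1.28 to -1.05). Mmp12 had 140 UMIs in untreated and 0 in regressed stroma, at least 21.3-fold lower.

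These calls moved with which clusters made up the stroma. The share of all features called was not recomputed under the alternatives given here or further on. Without Stroma10, which held 1537 of the 1918 regressed cells, 3 rather than 14 members were lower, and with the shared clusters weighted equally 1 was lower and 2 were higher. The shared clusters Stroma3, Stroma4, Stroma6 and Stroma8 held only 12, 20, 13 and 18 regressed cells. Without Stroma10 the direction turned for Adamts5 (0.28), Adamts18 (0.26), Mmp23 (0.036) and Adamtsl3 (-0.91), and with the shared clusters weighted equally for Mmp23 (0.39). Thinned to 1000 UMIs per cell, 1 member was higher and 7 were lower. The log2 ratio of Timp3 was 0.36 with the shared clusters weighted equally, no longer 2-fold, and 2.34 without Stroma10, the range of its alternatives. Regressed stroma also carried more transcripts of other cells: the red blood list summed to 1409 CPM against 33.0 and 0.625, the keratinocyte list to 749 against 167 and 247 and the mast list to 532 against 16.0 and 59.7, and their part in the calls was not tested.

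**Figure D3:**
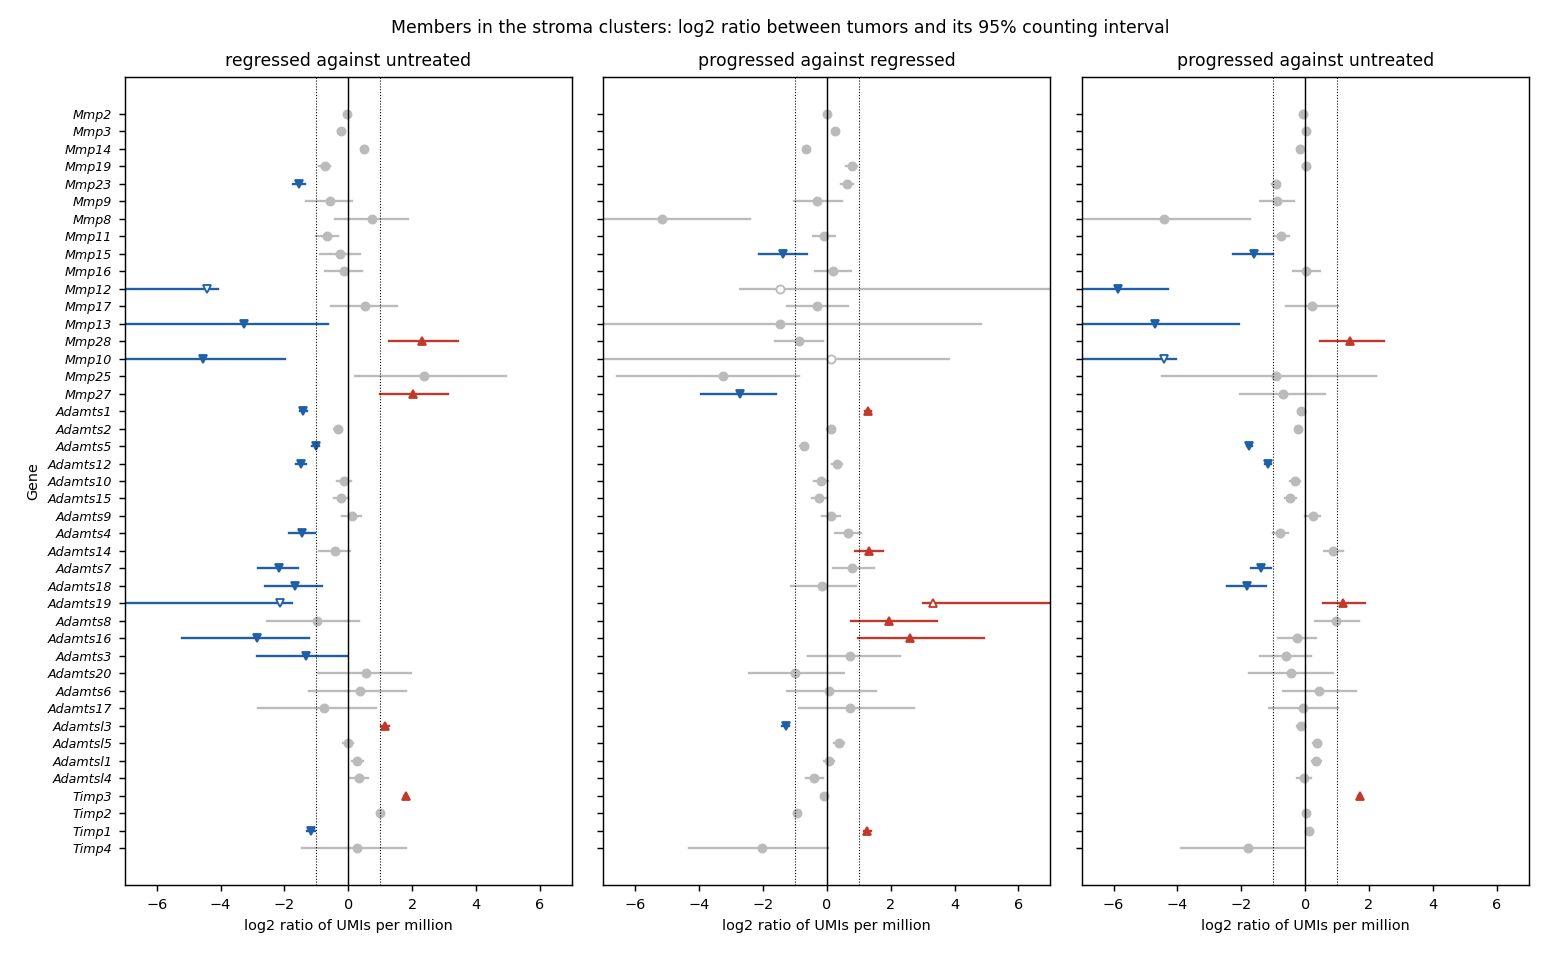
Log2 ratio of the level of each member in stroma, regressed to untreated, progressed to regressed and progressed to untreated (panels), with 95% counting intervals as lines cut at 7 and dotted lines at 2-fold. Red upward triangles are members called higher (4, 6 and 3), blue downward triangles members called lower (14, 3 and 8), grey points members not called or under 20 UMIs, and open markers bounds against a count of 0.

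The second comparison set the progressed against the regressed tumor. In stroma, 6 of 36 members compared were higher and 3 lower in the progressed tumor, beside 4.29% and 15.4% of all features, with medians of 0.090 over the members and -0.20 over all features. Adamts1 (1.28, 1.18 to 1.38) and Timp1 (1.27, 1.16 to 1.39) were close to their untreated levels in the progressed tumor. Adamts14 (1.32, 0.89 to 1.78), a procollagen N-proteinase, and the low-count Adamts8 (1.96, 0.76 to 3.46) and Adamts16 (2.61, 0.98 to 4.93) were higher as well. Adamts19 had 0 UMIs in regressed and 83 in progressed stroma, at least 10.1-fold higher. With TMM scaling, 8 were higher and 2 lower. The lower members were Mmp27 (-2.72, -3.94 to -1.60), Mmp15 (-1.36, -2.12 to -0.61) and Adamtsl3 (-1.29, -1.40 to -1.17). For Adamtsl3 the direction depended on 1 cluster: without Stroma10 its ratio was 0.78.

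The third comparison set the progressed against the untreated tumor, which shared more stroma clusters. Of 40 members compared, 3 were higher and 8 lower in progressed stroma, beside 3.23% and 5.26% of all features, with medians of -0.14 and -0.057. Higher were Timp3, Mmp28 (1.42, 0.46 to 2.48) and Adamts19 (1.20, 0.57 to 1.86). Lower were Adamts5 (-1.75, -1.83 to -1.67), Adamts12 (-1.17, -1.26 to -1.07), Adamts7 (-1.37, -1.69 to -1.06), Adamts18 (-1.81, -2.44 to -1.22) and Mmp15 (-1.62, -2.25 to -1.02). The other 3 were the AP-1 word genes Mmp12 (-5.87, -8.16 to -4.29), Mmp13 (-4.71, -10.08 to -2.08) and Mmp10, which had 51 UMIs in untreated and 0 in progressed stroma, at least 21.2-fold lower. For Mmp12 and Mmp10, 130 and 49 of the untreated stroma UMIs lay in Stroma1, a cluster with 0 progressed cells. The monocyte and macrophage list, whose cells also carry Mmp12 and Mmp13, summed to 42.6, 162 and 48.2 CPM in stroma and to 44.0 in untreated Stroma1, so it was not higher in untreated stroma, and its level in the few cells with Mmp12 was not tested. The fourth AP-1 word gene, Mmp3, had a ratio of 0.030 (-0.022 to 0.081). With the shared clusters weighted equally, the log2 ratio was 0.97 for Timp3, -0.78 for Adamts5, -0.60 for Adamts12 and -0.65 for Mmp12, all under 2-fold. Thinned to 1000 UMIs per cell, 1 member was higher and 2 were lower. The regressed and progressed comparisons with the untreated tumor share that tumor, so values that recur in both, such as those of Timp3 and Adamts12, are not independent.

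Of the immune cells, neutrophils carried the gelatinase and collagenase of their granules. Gelatinase B (Mmp9) was at 604 CPM (566 to 645) in untreated and 511 (433 to 599) in regressed neutrophils, a log2 ratio of -0.24 (-0.50 to 0.0071). Neutrophil collagenase (Mmp8) was at 471 and 131, a ratio of -1.84 (-2.35 to -1.38). In the same cells Mmp8 was thus lower in the regressed tumor while the interval of Mmp9 reached 0. The neutrophil list summed to 233827 and 97754 in these clusters, so the cluster's own markers were also lower in the regressed tumor. The progressed tumor had 4 neutrophils against 391 and 216, too few for a level. A Mmp8 UMI was present in 51.2% of untreated and 13.9% of regressed neutrophils, and after thinning to 1000 UMIs in 28.5% and 10.6%. Mmp25, a membrane-type protease of leukocytes, had 15 UMIs in untreated neutrophils (9.86 CPM). Outside neutrophils, Mmp9 was found in Monocytes2 of the untreated (42.2) and progressed (31.6) tumors with 0 UMIs in the regressed, and Mmp8 in Monocytes1 (73.9, 27.9 and 56.3).

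Monocytes1 held the proteases known from macrophages. Macrophage elastase (Mmp12) was at 151, 23.1 and 0 CPM in untreated, regressed and progressed Monocytes1, with a ratio of regressed to untreated of -2.71 (-3.48 to -2.03). Mmp19 was at 252, 134 and 60.3, the highest levels of this gene in any cluster of each of the untreated and regressed tumors. Collagenase-3 (Mmp13) was at 82.8 and 4.86, with 0 UMIs in progressed Monocytes1. All of these were lower in the treated tumors in the same cluster, whereas the monocyte and macrophage list summed to 9204, 12788 and 22558 in it. The untreated Mmp12 and Mmp13 levels rested on few of the 225 cells. Mmp12 was 170 UMIs in 27 cells, with 70% in 5 cells, and Mmp13 was 93 UMIs in 12 cells, with 82.8% in 5. Progressed Monocytes1 had only 53 cells. In Monocytes2, Mmp12 was at 23.4 in the untreated (10 UMIs), 2.30 in the regressed (1 UMI) and 29.6 in the progressed tumor (30 UMIs). Of the progressed Monocytes2 UMIs, 5 of 161 cells held 76.7%. Macrophages held little Mmp12 in any tumor, at most 5.79. Mast cells carried Adamts5, at 274 (regressed) and 114 (progressed), above pooled NK_T cells at 16.4 and 11.2. Tumor1 cells also held Adamts5, at 159, 199 and 121 in untreated, regressed and progressed cells.

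**Figure D4:**
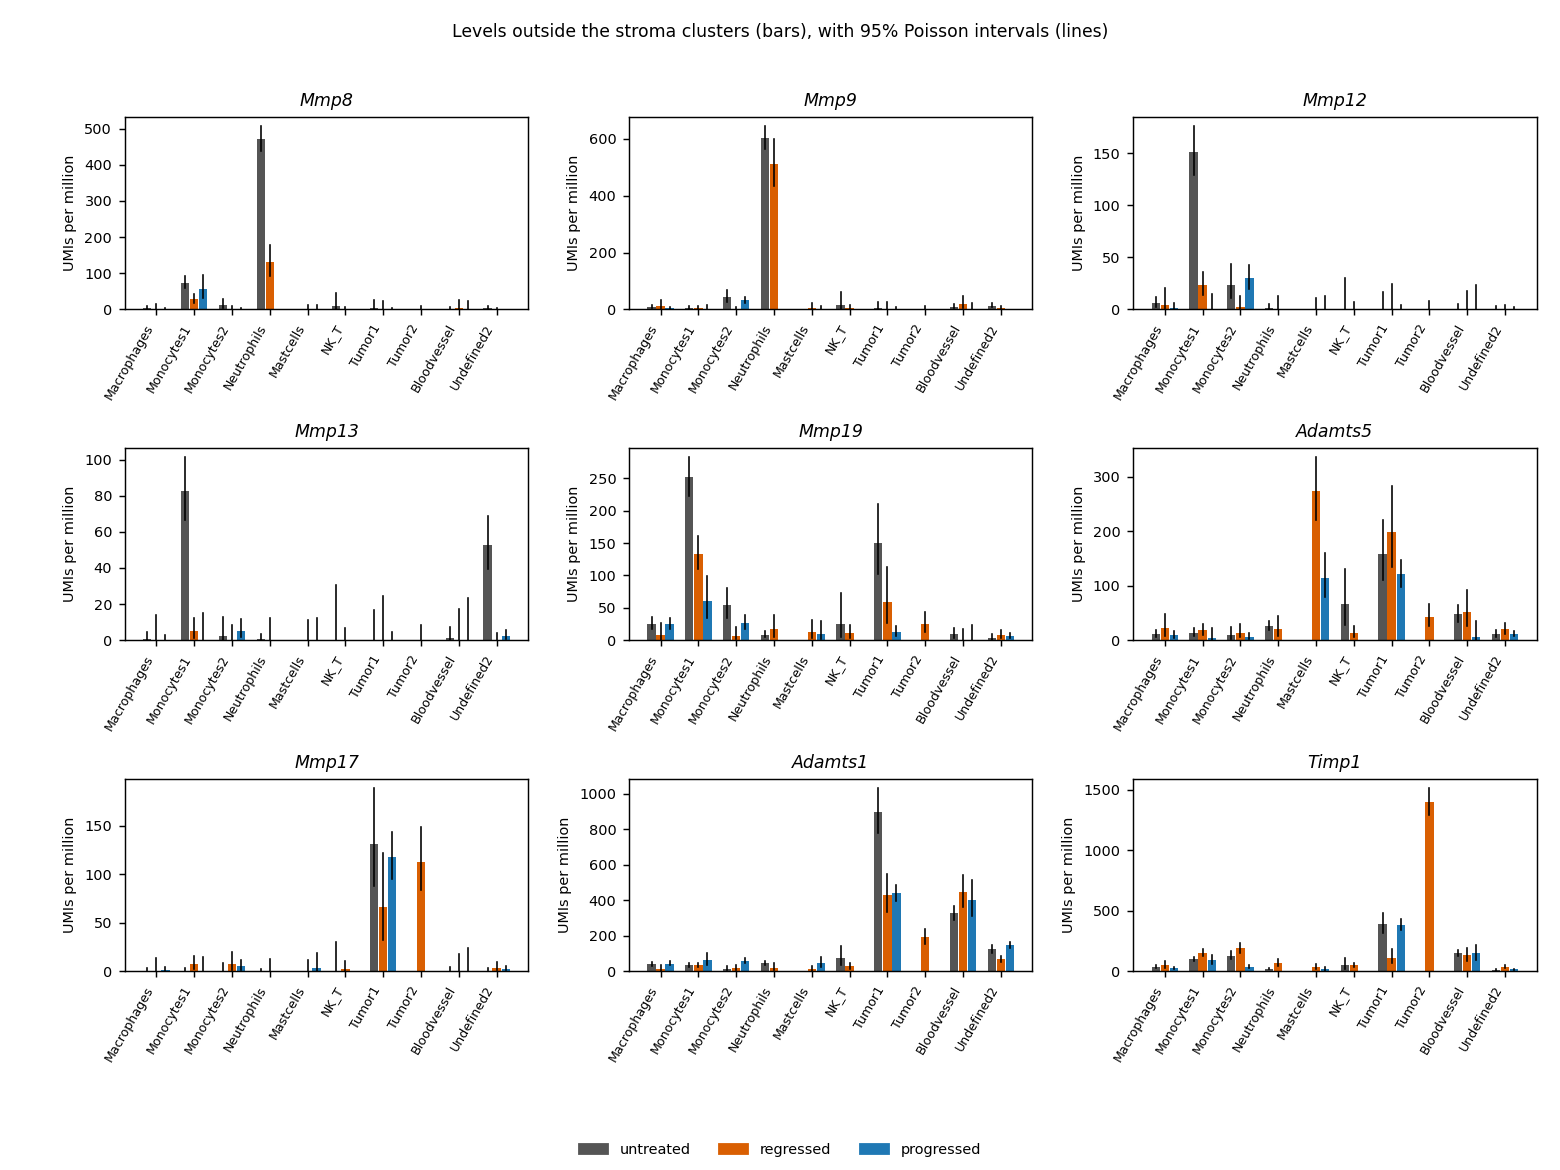
Level of 9 members in CPM in the immune, tumor and other clusters with at least 20 cells of a tumor, coloured by tumor, with 95% Poisson intervals for counting error. Mmp8 and Mmp9 stand above the other clusters in neutrophils, Mmp12, Mmp13 and Mmp19 in untreated Monocytes1, and Timp1 in regressed Tumor2, while Adamts5 is seen in both mast cells and Tumor1.

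Over all immune cells, the regressed tumor had 9 of 26 members higher and 6 lower than the untreated tumor, beside 24.5% and 3.55% of all features, with medians of 0.52 and 0.51. The lower members were the leukocyte proteases Mmp8 (-3.07, -3.46 to -2.69), Mmp9 (-1.90, -2.15 to -1.66), Mmp12 (-2.53, -3.25 to -1.88) and Mmp13 (-3.94, -5.85 to -2.54) together with Adamts4 (-1.53, -3.10 to -0.22) and Adamts12 (-1.001, -1.71 to -0.34). Neutrophils made 391 of 1053 untreated, 216 of 957 regressed and 4 of 683 progressed immune cells, and the neutrophil list over all immune cells summed to 80230.1, 10667 and 324. Of the higher members, 8 of 9 had most of their UMIs in stroma, the exception being Mmp15 with 29.2%. The higher members were Timp3 (2.58, 2.31 to 2.85), Adamtsl3 (1.81, 1.23 to 2.42), Adamts15 (1.76, 0.72 to 2.88), Adamts9 (1.64, 0.41 to 2.98), Mmp15 (1.53, 0.10 to 3.10), Mmp3 (1.23, 0.79 to 1.68), Adamts5 (1.10, 0.72 to 1.49), Adamts10 (1.06, 0.53 to 1.59) and Mmp2 (1.03, 0.84 to 1.22). Over the 9 members with most UMIs, pooled NK_T and NK_T_Cytolytic cells carried 4.87 to 24.3% of the stroma level in the untreated tumor, 7.09 to 45.3% in the regressed and 6.25 to 21.7% in the progressed, and the share of free stroma RNA in the immune values was not tested. With TMM scaling, 3 members were higher and 9 lower.

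Between the progressed and regressed immune cells, 1 of 24 members was higher and 10 lower, beside 3.57% and 15.4%, with medians of -0.88 and -0.28. Adamts1 was higher (1.17, 0.75 to 1.60). Lower were Mmp8 (-2.11, -3.03 to -1.28) and Mmp9 (-1.93, -2.43 to -1.44), both highest in neutrophils in the regressed tumor, of which the progressed tumor had 4, and Timp1 (-1.66, -2.01 to -1.33), Adamts5 (-1.35, -1.83 to -0.89), Adamtsl3 (-1.54, -2.21 to -0.91), Mmp2 (-1.25, -1.48 to -1.02), Adamts15 (-1.17, -2.30 to -0.14), Mmp3 (-1.06, -1.55 to -0.58) and Mmp14 (-1.004, -1.32 to -0.70). Mmp25 was lower as well (-1.50, -2.99 to -0.19), with 9 of its regressed UMIs in NK_T, 6 in Monocytes2 and 2 in neutrophils. For Timp1, Monocytes2 gave the same direction by itself, from 191 to 34.6 (-2.46, -3.08 to -1.88). Between progressed and untreated immune cells, 1 of 25 members was higher and 6 lower, beside 8.83% and 5.13%, with medians of -0.34 and 0.24. Timp3 was higher (2.05, 1.77 to 2.33), and Mmp8 (-5.17, -6.02 to -4.44), Mmp9 (-3.83, -4.29 to -3.40), Mmp13 (-3.68, -5.34 to -2.41), Mmp12 (-1.94, -2.52 to -1.40), Mmp19 (-1.63, -2.01 to -1.27) and Adamts12 (-1.62, -2.47 to -0.85) were lower.

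The membrane-anchored proteases Mmp17, Mmp15 and Mmp16 had their highest levels in tumor cell clusters. Tumor cells held 61.3%, 34.2% and 28.9% of their UMIs, and stroma held 22.9%, 29.2% and 61.7%. Mmp17, held to the membrane by a lipid anchor, was at 131, 66.2 and 117 CPM in untreated, regressed and progressed Tumor1 and 112 in regressed Tumor2, against at most 4.39 in stroma groups. The transmembrane Mmp15 was at 90.7, 72.8 and 145 in Tumor1 and was otherwise highest in Bloodvessel cells (50.1 untreated), and the transmembrane Mmp16 at 45.3, 113 and 70.02. Each of these genes was highest in a tumor cell cluster in all 3 tumors. Adamts20, a protease known for its role in the spread of melanoblasts through embryonic skin, was rare but also led in Tumor1, with 10 UMIs in the progressed tumor. Tumor cells numbered 48, 410 and 160 with a median of 4078, 832 and 4656 UMIs, so that counting error is large here, and 349 of the 410 regressed cells were in Tumor2.

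In tumor cells, Mmp19 was called lower in each of the 3 comparisons, on few UMIs. In the regressed tumor, 1 of 15 members was higher than in the untreated tumor and 2 were lower, beside 11.5% and 5.62% of all features, with medians of 0.026 and 0.11. Timp3 was higher, at 224 and 451 (1.01, 0.60 to 1.45), and Adamts1, at 815 and 252 (-1.69, -2.01 to -1.39), and Mmp19, at 133 and 33.6 (-1.98, -2.85 to -1.15), were lower. With TMM scaling, 0 were higher and 2 lower. In Tumor1 alone, Adamts1 gave -1.06 (-1.49 to -0.65). Between progressed and regressed tumor cells, 1 of 18 members was higher and 3 lower, beside 4.42% and 10.2%, with medians of -0.19 and -0.079. Mmp15 was higher (1.55, 0.96 to 2.19), and Timp1 (-1.49, -1.69 to -1.30), Adamtsl3 (-1.32, -2.68 to -0.060) and Mmp19 (-1.23, -2.40 to -0.13) were lower. For Timp1 the sign depended on the clusters taken, since in Tumor1 alone the ratio was 1.77 (1.07 to 2.57). That ratio rests on 17 UMIs in regressed and 319 in progressed Tumor1, where 5 of 156 cells held 53.6% of the Timp1 UMIs. Between progressed and untreated tumor cells, 0 of 16 members were higher and 1 was lower, beside 5.44% and 4.36%, with medians of -0.20 and 0.031. That gene was Mmp19 (-3.21, -4.30 to -2.23), with 35 UMIs in 48 untreated and 12 in 160 progressed cells. In untreated Tumor1, 11 of 44 cells had a Mmp19 UMI, 1 cell held 14 of 33 UMIs and 5 cells held 75.8%. The monocyte and macrophage list, whose cells also carry Mmp19, summed to 576, 232 and 119 in tumor cells, the same order as Mmp19, and its part in the difference was not tested.

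For several genes of the chromosome 9 row, the level rested on few cells. The 10 cells with most UMIs held 94.9% of all Mmp10, 77.7% of all Mmp13 and 66.9% of all Mmp12 UMIs, against 8.87% for Mmp3 and 1.59% for Mmp2. Mmp12 in untreated Stroma1 was 130 UMIs in 7 of 472 cells, and Mmp10 there was 49 UMIs in 8 cells. Mmp13 in untreated Undefined2, a keratinocyte-rich cluster of 80 cells, was 53 UMIs in 3 cells, and Mmp10 was 25 UMIs in 2 cells. In Monocytes1 of the untreated tumor, Mmp13 lay in 12 of 225 cells. These levels therefore describe a few cells with many transcripts rather than the cluster as a whole, and so does Adamts18, of which 10 cells held 43.4%, with its highest level in untreated (126) and progressed (43.5) Stroma3.

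**Figure D5:**
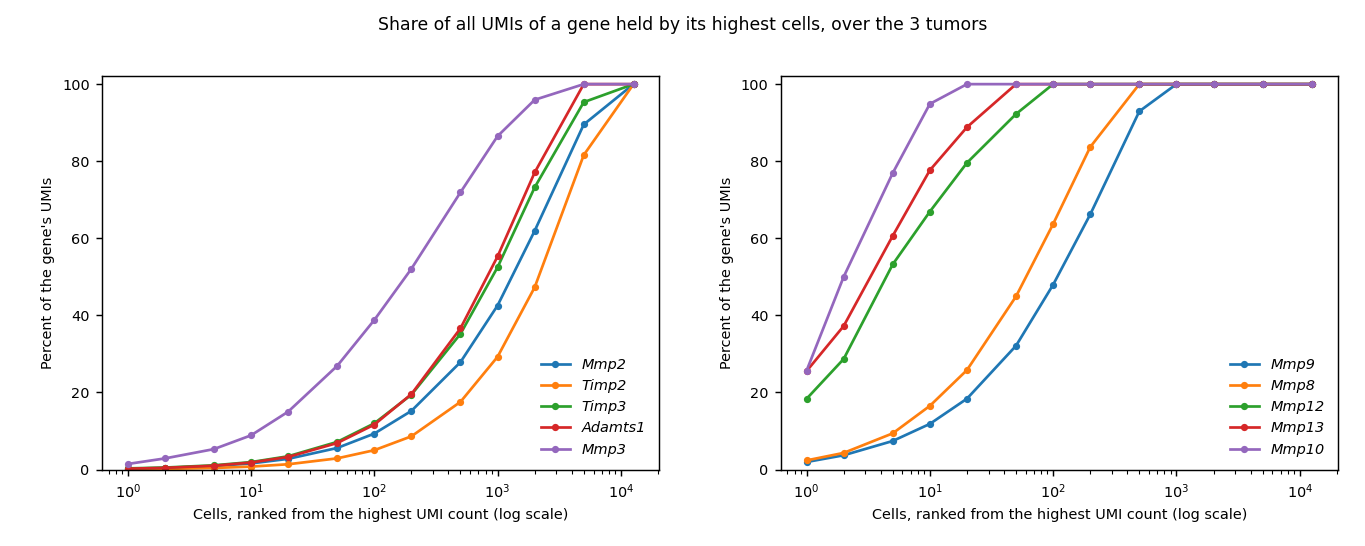
Cumulative percent of a gene's UMIs (vertical axis) held by its highest cells, ranked by UMIs over all tumors (horizontal axis, number of cells on a log scale). The left panel shows widely expressed members and the right panel genes of few cells; the 10 highest cells hold 94.9% of Mmp10 and 11.8% of Mmp9.

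The remaining members with 20 to 299 UMIs were read by total and leading group only. Adamts19 (130 UMIs) led in progressed Stroma5 at 11.9 CPM, Adamts16 (112) in untreated Stroma5 at 15.2, and Adamts8 (124) in progressed Stroma5 at 5.42. Among groups with at least 10 UMIs, Stroma5, low in Mmp3 and Adamts5, was thus the leading cluster of 3 rare Adamts genes and of Adamts14. Stroma8 was higher for each of the 3 on fewer UMIs, at 36.8 for Adamts19 (progressed, 7 UMIs), 41.0 for Adamts16 (untreated, 5 UMIs) and 16.4 for Adamts8 (untreated, 2 UMIs). Mmp28 (113) led in progressed Stroma7 at 5.49, Adamts3 (82) in untreated Stroma2 at 2.89 and Adamts17 (58) in progressed Stroma6 at 2.11. Mmp27 (58) led in regressed Stroma9 at 9.40, and Adamts6 (68), with 57.4% of its UMIs in stroma, held fewer than 10 UMIs in every group and was highest in regressed mast cells at 15.2 (5 UMIs). Each of these genes was at 0 UMIs in some groups, and 66 UMIs or fewer stood behind each of these leading levels.

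Other genes that act on the same matrix were read from a list of 28 proteases, activators, inhibitors and receptors, beside the shares of all features called higher and lower in the same comparison. In stroma, 26 were compared in each pair of tumors. The cathepsin Ctss (1 gene) was higher and 2 (the proteases Adam12 and Adam9) were lower in regressed than in untreated stroma, beside 13.2% and 6.38%. Between progressed and regressed stroma, 2 were higher (Adam12 and the hyaluronan receptor Cd44) and 5 lower (Ctss, Adam8, Serpine2, the proprotein convertase Pcsk5 and the plasminogen activator Plau), beside 4.29% and 15.4%. Between progressed and untreated stroma, 0 were higher and 3 lower (Serpine2, Adam8 and Pcsk5), beside 3.23% and 5.26%. Adam12 thus had the order of Adamts1 and Timp1, low in the regressed tumor. In immune cells, 23 or 24 genes were compared. Regressed against untreated had 2 higher (Reck, a membrane-bound Mmp inhibitor, and Plat) and 2 lower (the urokinase receptor Plaur and Adam8), beside 24.5% and 3.55%. Progressed against regressed had 2 higher (Ctsb and Cst3) and 5 lower (Serpine2, Ctsk, Reck, Plaur and Serping1), beside 3.57% and 15.4%. Progressed against untreated had 3 higher (Plat, Cst3 and Adam12) and 4 lower (Plaur, Adam8, Serpine2 and Ctsl), beside 8.83% and 5.13%. In tumor cells, 21 genes were compared. They gave 1 higher (Ctss) and 2 lower (Adam19 and Ctsl) in regressed against untreated, beside 11.5% and 5.62%. They gave 1 higher (Adam19) and 4 lower (Ctss, Serpine2, Serping1 and Plat) in progressed against regressed, beside 4.42% and 10.2%, and 1 higher (Cst3) and 2 lower (Serping1 and Ctsl) in progressed against untreated, beside 5.44% and 4.36%.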

How the data were processed

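Single cells of 3 melanomas, 1 tumor per group, were measured with droplet-based single-cell RNA-seq that reads the 3′ end of transcripts. The deposited tables hold whole-number counts of UMIs per gene and cell: the authors aligned the reads with GSNAP to GRCm38, counted reads on the sense strand of exons, merged UMIs within 1 mismatch and kept cells with at least 300 UMIs. A second deposited table gives each cell's cluster name, which the authors made with Seurat 2.2.0, and its deposited counts of UMIs and detected genes. The tables' sums exceeded the deposited UMI count per cell by 5.02% in all, features without a gene symbol held 3.74% of the UMIs, and the Entrez IDs were matched to symbols through RefSeq. Levels count the 3′ ends of transcripts and are not scaled to gene length, so they are compared mainly between cells and tumors. Where genes are set beside each other, as in shares and family sums, the values describe captured UMIs only.

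UMIs were summed over the cells of a cluster or compartment in each tumor and divided by their total. Levels have exact Poisson 95% intervals, shares exact Clopper-Pearson intervals and log2 ratios exact conditional binomial intervals, all for counting error only, and a count of 0 was set to a floor of 3 UMIs for a fold. A feature was called at 2-fold or more with an interval without 0, among features with at least 20 UMIs in the tumors compared. With 1 tumor a group no p-value was computed. Levels per cluster were read from at least 20 cells. Alternatives were TMM scaling (edgeR 4.0.16), other totals, thinning to 1000 UMIs per cell, equal weight per cell, other clusters and other thresholds. The calls were tested on simulated counts that held counting error only, which cannot test differences between animals or between clusters. Doublets were not called, and 0 cell identifiers were shared between libraries. Python 3.11.15, numpy 2.4.6, scipy 1.17.1, pandas 2.3.3 and R 4.3.3 were used.

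The text names every Timp gene, every member with at least 300 UMIs by cluster and tumor, the called members of each comparison, and each other member by total and leading cluster. Members, gene lists and comparisons were chosen with earlier results of these data known. A gene of the list of related proteases and an allele of the mouse model are not reported here.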

Additional observations from a re-analysis of the deposited data

Results flagged for a closer look

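For Adamts5, the log2 ratio of regressed to untreated was -1.03 in stroma and 1.10 in immune cells, opposite directions whose difference was not tested; without Stroma10, the stroma value was 0.28. Mast cells, which made up 106 of the 957 regressed and 16 of the 1053 untreated immune cells, carried it at 274 CPM in the regressed tumor. For Mmp15, the log2 ratio of progressed to regressed was -1.36 in stroma and 1.55 in tumor cells, also untested. For Timp1, the log2 ratio of progressed to regressed was 1.27 in stroma against -1.66 in immune cells and -1.49 in tumor cells, untested as well, and the value in tumor cells was 1.77 in Tumor1 alone.

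Outside the 3 compartments compared, Adamts9 reached 93.3 CPM in the regressed tumor's Bloodvessel cells, above the 42.4 CPM of the untreated tumor, and Mmp10 reached 24.8 CPM in the untreated tumor's Undefined2 cells, where 2 cells held all 25 UMIs.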

How the results depend on the processing

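No paired analysis was possible because each group is 1 tumor and the labels give no replicate numbers. Totals without haemoglobin and mitochondrial genes left every one of the 18 counts of called members and 79 log2 ratios within the limits set. The cause of the other shifts below was not tested. The share of all features called was computed for the main setting only. Whether the counts of members below moved more than that share is therefore not known.

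Cells thinned to 1000 UMIs gave, in stroma, 1 member higher and 7 lower (regressed to untreated), 3 higher and 0 lower (progressed to regressed), and 1 higher and 2 lower (progressed to untreated), and in immune cells 5 higher (regressed to untreated). Without Stroma10, 3 members were lower in regressed than in untreated stroma and 6 lower in progressed than in regressed stroma. With the shared stroma clusters weighted equally, 2 were higher and 1 lower (regressed to untreated), 1 lower (progressed to regressed) and 1 higher (progressed to untreated). TMM scaling moved the log2 ratios of immune cells by -0.59, 0.32 and -0.27 and gave 3 higher in regressed than in untreated and 5 lower in progressed than in regressed immune cells, and 0 higher in regressed than in untreated tumor cells. Without the 5% deepest cells, 0 members were higher in progressed than in regressed immune cells, 4 lower in regressed than in untreated and 2 higher in progressed than in regressed tumor cells. Equal weight per cell gave 0 higher in progressed than in regressed immune cells, and in tumor cells 4 lower (regressed to untreated), 3 higher (progressed to regressed), and 1 higher and 3 lower (progressed to untreated).

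A fold of 1.5 gave, in stroma, 10 higher and 7 lower (progressed to regressed) and 5 higher (progressed to untreated), and in tumor cells 3 higher and 4 lower (regressed to untreated), 3 higher and 5 lower (progressed to regressed) and 2 higher and 3 lower (progressed to untreated). A minimum of 50 UMIs gave 2 higher in regressed than in untreated stroma, and in tumor cells 1 lower (progressed to regressed) and 0 lower (progressed to untreated). No minimum gave 5 lower in progressed than in regressed stroma, 2 higher (progressed to regressed) and 4 higher (progressed to untreated) in immune cells, and 2 higher (regressed to untreated) and 4 lower (progressed to untreated) in tumor cells.

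The direction of 6 called ratios turned, that of Mmp23 under 2 alternatives. Without Stroma10, the log2 ratio of regressed to untreated stroma was 0.26 for Adamts18, 0.28 for Adamts5, 0.036 for Mmp23 and -0.91 for Adamtsl3, and that of progressed to regressed stroma 0.78 for Adamtsl3. With the shared clusters weighted equally, Mmp23 was at 0.39 (regressed to untreated), and in Tumor1 alone Timp1 was at 1.77 (progressed to regressed). In tumor cells, depth limited the comparison to 15 to 18 of the 43 members.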

Other observations

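Some clusters outside the compartments compared also differed between tumors in the inhibitors. In Dividing cells, a mixed cluster of 43, 75 and 147 cells, Timp1 was at 83.1 CPM (untreated), 573 (regressed) and 193 (progressed), with a log2 ratio of regressed to untreated of 2.79 (2.27 to 3.33). Mmp2, in contrast, was at 212, 228 and 329.6 in these cells. The keratinocyte list in Dividing cells summed to 5839, 11629 and 3554, and the fibroblast list to 10245, 3256 and 23498, so the marker lists of this cluster also differed between the tumors.

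In Bloodvessel cells, Timp3 was at 208 CPM in the untreated tumor, 774 in the regressed and 866 in the progressed, with log2 ratios to untreated of 1.90 (1.58 to 2.22) and 2.06 (1.72 to 2.40). The endothelial list was nearly level there, at 2849.8, 2849.6 and 2923. Timp2 in the same cells was at 268, 592 and 166, with a ratio of regressed to untreated of 1.14 (0.81 to 1.47). In the keratinocyte-rich Undefined1 cells, Adamts1 was at 369.6, 155 and 406, a ratio of regressed to untreated of -1.26 (-1.60 to -0.93), the same direction as in stroma.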
